A study of Mus musculus with 6 samples.

Results

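The 10 genes described here are those of FoxO transcription factors, insulin signalling and muscle atrophy: Insr, Irs1, Irs2, Pik3ip1, Foxo1, Foxo3, Foxo4, Fbxo32, Trim63 and Fbxo30. They were chosen by name from the 52550 gene rows of the deposited FPKM table (fragments normalised to transcript length and library depth), and each of the 10 symbols matched 1 row through its Ensembl identifier. RNA came from 6 heart samples of C57BL/6 mice, 3 wild type (WT) and 3 homozygous for loss of a long noncoding RNA named lncRNA-DRR (KO, genotype lncRNA-DRR-/-). In both genotypes the left anterior descending coronary artery was tied permanently at 8 weeks of age, and hearts were taken at 10 weeks, 2 weeks after the infarction. No sham-operated heart was analysed here, so the comparison is KO against WT within the infarcted heart, and it asks how the genotype relates to these genes in that setting. The labels do not say how the deletion was made or whether a heart stands for a single mouse, and p-values therefore measure the spread between these samples.

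Insulin and IGF1 act through receptor tyrosine kinases whose signal is carried by the adapter proteins IRS1 and IRS2 to PI3-kinase and then to the kinase AKT. Active AKT phosphorylates the FoxO factors and keeps them out of the nucleus. When AKT activity falls, nuclear FoxO factors switch on genes of proteolysis and autophagy, among them the muscle ubiquitin ligases atrogin-1 (Fbxo32) and MuRF1 (Trim63), and also Insr and Irs2, which closes a feedback loop onto the pathway. In the heart this axis sets the balance between growth and loss of muscle mass, and much of its control lies in protein phosphorylation, which RNA levels do not show.

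Libraries held about 5189000 to 9398000 fragments and totals of 442779 to 533319 FPKM. Fragments were judged from the most frequent FPKM times length in single-transcript genes, taken as 1 fragment. WT replicate 3 was the shallowest. KO replicate 3 differed in sex-linked genes, with Xist at 25.6 FPKM against 0.0270 to 0.0742 FPKM in the other 5 libraries, and Ddx3y at 0.0280 FPKM against 13.0 to 16.2 FPKM. The clock gene Dbp stood at 1.70 to 2.29 FPKM in WT and 28.6 to 40.5 FPKM in KO libraries, and Arntl at 6.63 to 9.86 and 0.511 to 1.01 FPKM. No label gives the hour of harvest, so genotype and time of day cannot be told apart for any gene below. The heart label fits its markers: the 9 cardiomyocyte genes summed to 10080 to 12837 FPKM across WT and to between 8092 and 12501 FPKM across KO libraries. The groups overlapped for the summed markers of cardiomyocytes, fibroblasts, endothelium, mural cells, macrophages, adipocytes, skeletal muscle and erythroid cells, and did not for neutrophils (45.5 to 64.0 FPKM in WT hearts, 17.3 to 29.6 FPKM in KO) and lymphocytes (3.90 to 7.93 FPKM and 2.47 to 3.81 FPKM).

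The promoter table of RefSeq (GRCm38.p6) held 7 of the 10 genes, and 3 are shown because they carry the letters through which FoxO factors, insulin, the clock and glucocorticoids are known to act. The windows of Irs1 and Irs2 belong to a pair of paralogous adapters and hold the same motifs. Irs2 is the gene with the smallest p of the 10. The window of Trim63 is the only 1 of the 7 that holds GTAAACA, the 1 sequence searched here as a FoxO element. Each sequence gives the 250 bases before the transcription start, 5′ to 3′ on the strand of the gene, with every match to a searched motif in capitals.
Irs1, chr1:82291440-82291689, minus strand: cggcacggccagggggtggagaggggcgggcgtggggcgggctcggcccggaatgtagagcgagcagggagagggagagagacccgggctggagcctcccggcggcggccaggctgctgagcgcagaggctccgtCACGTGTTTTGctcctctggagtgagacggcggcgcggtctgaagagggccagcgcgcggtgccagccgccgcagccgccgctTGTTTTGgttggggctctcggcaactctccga
Irs2, chr8:11008930-11009179, minus strand: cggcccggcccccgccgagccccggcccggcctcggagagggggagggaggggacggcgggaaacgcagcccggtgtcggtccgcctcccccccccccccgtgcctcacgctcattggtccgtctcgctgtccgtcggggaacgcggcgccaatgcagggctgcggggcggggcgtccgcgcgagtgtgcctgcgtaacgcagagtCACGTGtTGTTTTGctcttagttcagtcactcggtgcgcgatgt
Trim63, chr4:134314870-134315119, plus strand: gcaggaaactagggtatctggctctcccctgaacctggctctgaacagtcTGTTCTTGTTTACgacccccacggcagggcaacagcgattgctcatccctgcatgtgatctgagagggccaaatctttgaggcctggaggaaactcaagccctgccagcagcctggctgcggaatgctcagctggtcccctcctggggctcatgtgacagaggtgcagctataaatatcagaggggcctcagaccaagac

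Motifs were searched on both strands of the whole 300-base window, which also takes in the 50 bases after the start. Positions count from the RefSeq start. The GENCODE model of Irs2 starts further downstream, at chr8:11008458 on the minus strand. In Irs2 the E-box CACGTG, bound by clock and other basic helix-loop-helix factors, lay at bases -44 to -39 from the start, and TGTTTTG, the reverse complement of the insulin response core CAAAACA, at -37 to -31. In Irs1 the E-box lay at -115 to -110 and overlapped TGTTTTG at -111 to -105, with another TGTTTTG at -32 to -26. Both adapters thus held the same pair of motifs side by side. In Trim63, TGTTCT, the reverse complement of the hexamer AGAACA bound by the glucocorticoid receptor, lay at -200 to -195 and abutted TGTTTAC, the reverse complement of the FoxO element GTAAACA, at -194 to -188. Of the 32851 promoter windows in the table, 3.65% held GTAAACA, 6.28% CAAAACA, 7.15% CACGTG and 19.0% AGAACA on either strand. None of the 4 motifs was found in the windows of Foxo1, Foxo3, Pik3ip1 and Fbxo30. These matches describe letters in a sequence and were not tested for binding.

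All 10 genes were expressed in every library and passed the filter on low values. FPKM is scaled to transcript length, which allows levels to be compared between genes. Trim63 was the most abundant, with a mean of 37.9 FPKM over the 6 libraries (30.1 to 42.6 FPKM), and its lowest library lay above the highest of any other of the 10. Foxo3 (13.7 FPKM), Fbxo32 (12.2 FPKM) and Foxo4 (10.9 FPKM) followed. Neighbours among these 3 overlapped in WT hearts and did not in KO hearts. Pik3ip1 (6.06 FPKM), Foxo1 (5.08 FPKM), Insr (4.39 FPKM), Irs2 (4.28 FPKM), Fbxo30 (3.93 FPKM) and Irs1 (3.60 FPKM) made up the lower part of the order. Within it most neighbours overlapped in both genotypes, but Insr lay above Irs2 in every WT heart and Irs2 above Fbxo30 in every KO heart. Foxo6, the remaining FoxO gene and no member here, stood at 0.141 to 0.713 FPKM.

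**Figure D1:**
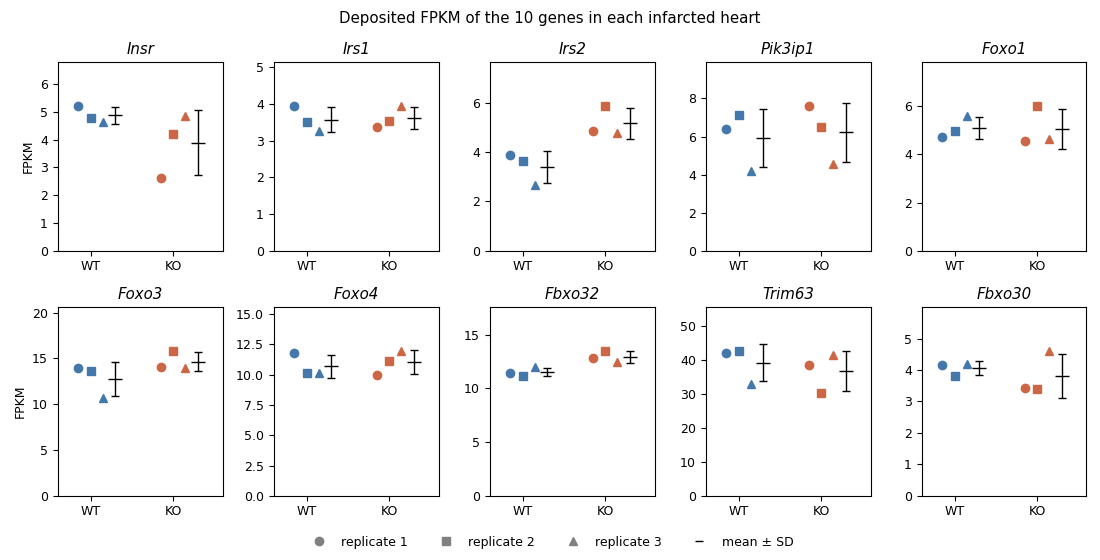
FPKM (vertical axes, each from 0) of the 10 genes in the 3 WT (blue) and 3 KO (red) hearts, with the replicate given by the symbol and the mean ± SD in black. The groups stand apart in Irs2 and Fbxo32, and KO replicate 1 is the lowest library in Insr.

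Irs2 showed the widest difference of the 10 genes, but it did not pass the test. This adapter gene, known to follow fasting and FoxO activity, stood at 3.89, 3.65 and 2.67 FPKM in WT replicates 1 to 3 and at 4.85, 5.88 and 4.76 FPKM in KO replicates 1 to 3. Every KO heart lay above every WT heart. The means were 3.40 ± 0.64 and 5.16 ± 0.62 FPKM (SD, n = 3 each). On the scale of log2(FPKM + 0.5), used for all log2 differences here as KO minus WT ± SE, Irs2 differed by 0.56 ± 0.14 (limma adjusted p = 0.249), which ranked 271 by p among 14656 genes. The fitted fold was 1.47 with an unadjusted 95% interval of 1.17 to 1.84. In these bulk samples more cells of a type and more RNA per cell cannot be told apart. The log2 difference of Irs2 stayed between 0.45 and 0.62 with any 1 library left out, with limma adjusted p from 0.333 to 0.525. About 90 to 300 fragments per library lay behind these values, if all came from the longest coding transcript.

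Irs1, which encodes the other main adapter of the insulin and IGF1 receptors, stood at 3.94, 3.53 and 3.27 FPKM in WT hearts and at 3.38, 3.55 and 3.95 FPKM in KO hearts. The groups overlapped over nearly their whole range, and the log2 difference was 0.03 ± 0.12 (limma adjusted p = 0.972). Its unadjusted 95% interval, on the same log2 scale, ran from -0.26 to 0.32. The protein-coding gene model Gm9747 lies on the opposite strand within the Irs1 locus and was listed at 3.64 to 5.23 FPKM. Use of strand in assigning reads is not given in the sources used here. Overlap was judged on whole gene spans, and whether the genes share exons, and so reads, was not checked.

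Insr, the insulin receptor gene, stood at 5.22, 4.78 and 4.65 FPKM in WT hearts and at 2.61, 4.21 and 4.87 FPKM in KO hearts. KO replicate 1 was the lowest library, and KO replicate 3 lay within the WT range. The log2 difference was -0.32 ± 0.20 (limma adjusted p = 0.746) with an unadjusted 95% interval from -0.78 to 0.14. Without KO replicate 1 it was -0.11 (limma adjusted p = 0.948), so that library carries most of the lower KO mean of 3.90 ± 1.16 FPKM.

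Pik3ip1 encodes a transmembrane inhibitor of PI3-kinase. It stood at 6.40, 7.13 and 4.21 FPKM in WT hearts and at 7.61, 6.51 and 4.54 FPKM in KO hearts. The third replicate was the lowest in each genotype, and the groups overlapped (log2 difference 0.08 ± 0.23, limma adjusted p = 0.956). Its SE was the widest of the 10 genes, with an unadjusted 95% interval of 0.73 to 1.54 as a fold, and about 60 to 150 fragments per library lay behind it. The sign turned without WT replicate 3 (-0.09) or without KO replicate 1 (-0.10).

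The 3 FoxO genes encode forkhead factors that AKT holds in check. Foxo3, the most abundant of them, stood at 13.99, 13.6 and 10.6 FPKM in WT hearts and at 14.0, 15.8 and 13.97 FPKM in KO hearts. KO replicate 3 lay just under WT replicate 1, so the groups met at their edges, and WT replicate 3 was the low library. The log2 difference was 0.21 ± 0.12 (limma adjusted p = 0.707, unadjusted 95% interval -0.06 to 0.49). Without WT replicate 3 it was 0.13.

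Foxo1 stood at 4.71, 4.97 and 5.61 FPKM in WT hearts and at 4.55, 6.01 and 4.62 FPKM in KO hearts. Its log2 difference was -0.0056 ± 0.15 (limma adjusted p = 0.996), with an unadjusted 95% interval of 0.79 to 1.26 as a fold. The highest and the lowest library were both KO hearts. Gm20402, annotated as antisense to Foxo1, was listed at 0.981 to 5.08 FPKM, and the same limits on strand and exons apply.

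Foxo4, which lies on the X chromosome, stood at 11.8, 10.2 and 10.1 FPKM in WT hearts and at 9.98, 11.1 and 11.97 FPKM in KO hearts. The highest value belonged to KO replicate 3, the library with Xist. The log2 difference was 0.06 ± 0.12 (limma adjusted p = 0.939), and without KO replicate 3 it was -0.02 (limma adjusted p = 0.975). The part of sex in this value was not tested.

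Among the muscle ubiquitin ligases, Fbxo32 and Trim63 are the classic markers of atrophy, and Fbxo30 encodes the ligase MUSA1. Fbxo32 stood at 11.4, 11.2 and 11.96 FPKM in WT hearts and at 12.8, 13.5 and 12.4 FPKM in KO hearts. The groups did not overlap, with means of 11.5 ± 0.4 and 12.9 ± 0.5 FPKM (SD, n = 3 each), but the gap was small. The log2 difference of 0.17 ± 0.11 was not called (limma adjusted p = 0.770, unadjusted 95% interval 0.94 to 1.35 as a fold). An antisense model at this locus, Gm15943, was listed at 1.64 to 3.45 FPKM.

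Trim63 stood at 41.8, 42.6 and 32.9 FPKM in WT hearts and at 38.5, 30.1 and 41.3 FPKM in KO hearts. Low libraries occurred in both genotypes (WT replicate 3 and KO replicate 2), and the log2 difference was -0.08 ± 0.18 (limma adjusted p = 0.940, unadjusted 95% interval 0.71 to 1.26 as a fold). KO replicate 2 also had the lowest summed cardiomyocyte markers (8092 FPKM), and the part of this in the value was not tested. Without that library the log2 difference was 0.10. Markers of skeletal muscle, where Trim63 and Fbxo32 are also expressed, summed to 32.2 FPKM in WT replicate 1 and 1.08 to 11.5 FPKM in the other 5 libraries. Their part in the Trim63 and Fbxo32 values was not tested.

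Fbxo30 stood at 4.16, 3.80 and 4.19 FPKM in WT hearts and at 3.44, 3.39 and 4.61 FPKM in KO hearts. KO replicates 1 and 2 lay below the WT hearts and KO replicate 3 above them. The log2 difference was -0.08 ± 0.16 (limma adjusted p = 0.939), and without KO replicate 2 it was 0.03.

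Of the 10 genes, 0 were called at a limma adjusted p under 0.05, where 0.375% of the 14656 tested genes were called. At an unadjusted limma p under 0.05, there was 1 of the 10 (Irs2, higher in KO), against 8.48% of all tested genes (3.80% higher and 4.68% lower). The WT and KO hearts did not overlap in Irs2 and Fbxo32, both higher in KO, against 5.29% of tested genes without overlap in that direction and 7.50% in the other. Log2 differences were above 0 in 6 of the genes and below 0 in 4, with a median of 0.04, and the median over all tested genes was -0.0042. The intervals leave room for modest differences: the largest fold within any of the 10 unadjusted 95% intervals was 1.84 upwards (Irs2), and the lowest 0.58 (Insr).

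**Figure D2:**
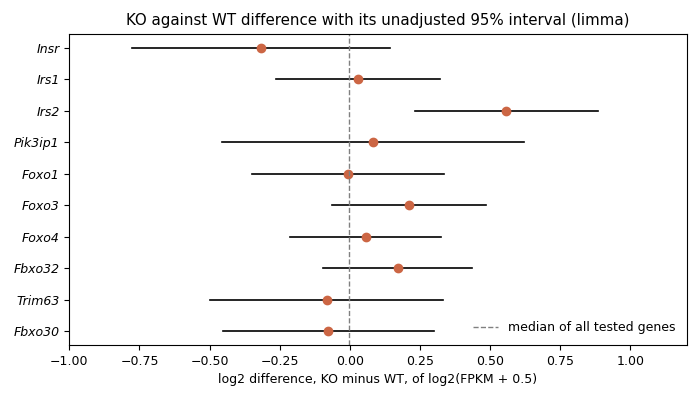
Log2 difference of KO minus WT (horizontal axis, log2(FPKM + 0.5), points) with the unadjusted 95% interval from limma (lines) for the 10 genes, and the median over all tested genes (dashed). The interval of Irs2 lies above 0 and those of the other 9 genes include 0.

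Ratios within a library compare genes of the pathway with little effect of the scaling between libraries, which enters only through the added 0.5. The log2 ratio of Irs2 to Irs1 was -0.02, 0.04 and -0.25 in WT and 0.47, 0.65 and 0.24 in KO replicates 1 to 3. The adapters were thus near parity in WT hearts, and Irs2 lay above Irs1 in each KO heart. The ratio was higher by 0.53 in KO, with no overlap, which gives the smallest p possible for 3 against 3 (exact permutation test, two-sided, p = 0.1, adjusted p = 0.25 over 5 ratios). The log2 ratio of Irs2 to Insr was -0.38, -0.35 and -0.70 in WT and 0.79, 0.43 and -0.03 in KO hearts, a difference of 0.87 (exact permutation p = 0.1, adjusted p = 0.25). Both ratios contain Irs2, the gene of the smallest p among the 10, and are not independent of each other.

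The other 3 ratios overlapped between the genotypes. Foxo3 exceeded Foxo1 by 1.23 ± 0.32 in WT and 1.45 ± 0.11 in KO hearts on the log2 scale (SD, n = 3 each, exact permutation p = 0.4), and the difference of 0.22 shrank to 0.03 without WT replicate 3. Foxo4 exceeded Foxo1 by 1.00 ± 0.22 and 1.06 ± 0.23 (SD, n = 3 each, exact permutation p = 0.7), a difference of 0.06 that was -0.04 without WT replicate 3 and -0.05 without KO replicate 3. Fbxo32 stood below Trim63 in every heart, with a log2 ratio of -1.71 ± 0.25 in WT and -1.46 ± 0.29 in KO (SD, n = 3 each, exact permutation p = 0.3). That difference of 0.25 was 0.09 without KO replicate 2 and 0.40 without WT replicate 3.

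**Figure D3:**
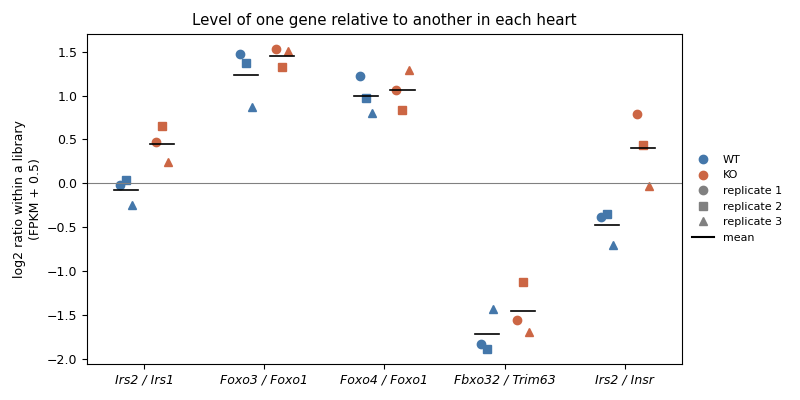
Log2 ratio of 1 gene to another within each library (vertical axis, of FPKM + 0.5) for 5 pairs in WT (blue) and KO (red) hearts, with replicates as symbols and group means as lines. The genotypes stand apart in both ratios with Irs2 and overlap in the other 3.

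Further along the insulin and IGF1 pathway, 43 of 44 listed genes were tested (Irs4 did not pass the filter). Of these 1 rose and 0 fell by limma, where 0.273% and 0.102% of all tested genes were called in these directions, and the median log2 difference was 0.02. At an unadjusted limma p under 0.05, 2 were higher and 2 lower, a share near the 8.48% of all tested genes. The list was chosen with earlier results of these data known, so neither count is independent evidence. The called gene was Sgk1, which encodes a kinase related to AKT that also phosphorylates FoxO factors and is induced by glucocorticoids. Sgk1 stood at 10.9, 9.87 and 10.4 FPKM in WT hearts and at 30.0, 28.9 and 20.2 FPKM in KO hearts, a rise of 1.29 ± 0.16 on the log2 scale (limma adjusted p = 0.029). Every KO heart lay far above the WT hearts, and KO replicate 3 was the lowest of them. The call held without KO replicate 3 (limma adjusted p = 0.020) and ended without any other single library (0.099 to 0.164). In these fits the log2 difference ranged from 1.16 to 1.46.

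Ddit4, which encodes REDD1, an inhibitor of mTOR complex 1, stood at 16.0, 17.5 and 10.7 FPKM in WT hearts and at 54.8, 60.7 and 29.9 FPKM in KO hearts. The groups did not overlap, and the log2 difference of 1.66 ± 0.27 missed the threshold (limma adjusted p = 0.073). Without KO replicate 3 it was 1.96 and passed (limma adjusted p = 0.032). Pik3cd, the gene of the PI3-kinase catalytic subunit typical of leucocytes, stood at 2.75, 2.57 and 2.66 FPKM in WT hearts and at 1.76, 1.85 and 1.24 FPKM in KO hearts (log2 difference -0.58 ± 0.16, limma adjusted p = 0.293). Its lower KO values stand beside the lower neutrophil and lymphocyte markers given above, whose part was not tested. The core kinases were close between genotypes: Akt2 differed by 0.02 ± 0.11 and Akt1 by -0.13 ± 0.12, and neither was called (limma adjusted p = 0.975 and 0.849, named after their values were seen).

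Among genes known as FoxO targets, 31 of 34 were tested (Pck1, G6pc and Igfbp1 did not pass the filter), and 2 rose, Tsc22d3 and Depp1, while 0 fell (0.273% and 0.102% of all tested genes). Both were placed on this list when their rise in these hearts was already known, so their count is no independent evidence. The median log2 difference of the list was 0.09. Tsc22d3, whose product GILZ is a leucine zipper protein induced by glucocorticoids, stood at 12.3, 14.3 and 12.7 FPKM in WT hearts and at 67.6, 80.9 and 53.9 FPKM in KO hearts (log2 difference 2.31 ± 0.16, limma adjusted p = 0.0027), and the call held without any 1 library. Depp1, a gene induced by FoxO factors and by fasting, stood at 12.6, 18.1 and 12.3 FPKM in WT hearts and at 81.1, 69.4 and 43.2 FPKM in KO hearts (log2 difference 2.12 ± 0.26, limma adjusted p = 0.027). That call held without KO replicate 3 and ended without any other single library (limma adjusted p from 0.062 to 0.102).

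Pdk4, the gene of the kinase that shuts down pyruvate dehydrogenase in fasting, stood at 32.9, 48.1 and 20.9 FPKM in WT hearts and at 133.8, 74.5 and 97.1 FPKM in KO hearts. The groups did not overlap, but the spread within each was wide, and the log2 difference of 1.62 ± 0.33 was not called (limma adjusted p = 0.148). At an unadjusted limma p under 0.05, 5 of the 31 genes were higher and 1 was lower, against 3.80% and 4.68% of all tested genes. The 5 include Tsc22d3 and Depp1, which were listed with their rise already known, so this count is no independent evidence either. Tsc22d3 and Pdk4 are also known to respond to glucocorticoids, and the clock genes Dbp and Arntl moved in the same libraries. The part of either in these differences was not tested.

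Other ligases and regulators of protein turnover in striated muscle gave 0 calls among 33 tested genes of 35 (Mstn and Acvr2b did not pass the filter), with 10 higher and 23 lower in KO and a median log2 difference of -0.08. Of all 14656 tested genes 0.375% were called, and 7220 were higher and 7436 lower. At an unadjusted limma p under 0.05, 1 was higher and 4 were lower, against 3.80% and 4.68% of all tested genes. This list too was chosen with earlier results of these data known, so its counts are no independent evidence. Fbxo40 encodes a muscle F-box protein that targets IRS1 for degradation. It stood at 40.1, 37.9 and 42.5 FPKM in WT hearts and at 24.9, 27.8 and 30.2 FPKM in KO hearts, without overlap (log2 difference -0.52 ± 0.13, limma adjusted p = 0.250). Kbtbd13 and Klhl40 encode kelch proteins of the thin filament. Kbtbd13 stood at 0.788, 0.783 and 0.842 FPKM in WT hearts and at 0.0479, 0.289 and 0.416 FPKM in KO hearts (log2 difference -0.83 ± 0.25, limma adjusted p = 0.359). It passed the filter of 0.5 FPKM through the WT libraries alone, so its place among the 4 lower genes is no support for them. Its log2 difference was -1.54 with a pseudocount of 0.1 and -0.54 with 1. Klhl40 stood at 5.78, 4.88 and 5.31 FPKM in WT hearts and at 2.99, 3.34 and 4.55 FPKM in KO hearts (log2 difference -0.50 ± 0.17, limma adjusted p = 0.442). The 9 cardiomyocyte markers were all lower in KO with all 6 libraries, 0 of them called by limma (0 at an unadjusted p under 0.05), but only 1 was lower without KO replicate 2 and 6 without WT replicate 3. Without KO replicate 2 the log2 differences of Fbxo40 and Klhl40 were -0.48 and -0.41. The part of cardiomyocyte content in the ligase values was not tested.

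**Figure D4:**
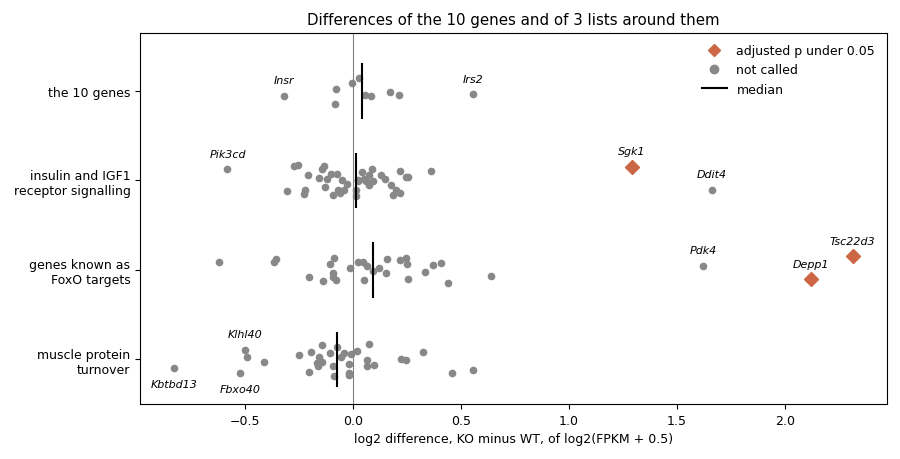
Log2 difference of KO minus WT (horizontal axis, log2(FPKM + 0.5)) for each tested gene of the 10 and of 3 surrounding lists (rows, with vertical scatter for legibility), with genes called at an adjusted p under 0.05 as diamonds and the median of each row as a line. Sgk1, Tsc22d3 and Depp1 are the called genes, and the medians lie between -0.08 and 0.09.

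For the 3 of the 10 genes with the smallest p, the tested genes of most similar profile were sought among 12699 genes with a mean of at least 1 FPKM, by the root mean square difference between centred log2 profiles over the 6 libraries. Nearest to Irs2 were Casq1 (0.06), which encodes a calsequestrin, Arl4a (0.07) and Mcf2l (0.07). Casq1 stood at 3.82, 3.35 and 2.64 FPKM in WT hearts and at 4.31, 5.53 and 4.20 FPKM in KO hearts. Nearest to Foxo3 were Tmed8 (0.03), Gm45717 (0.03) and Drosha (0.04), which share the low value in WT replicate 3. Nearest to Insr were Prdm10 (0.05), Mtx3 (0.06) and Mfsd8 (0.07), each lowest in KO replicate 1. None of these 9 genes was called (limma adjusted p from 0.291 to 0.833).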

How the data were processed

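The values used are the FPKM per gene that the authors deposited in a table titled as counts. They are not whole numbers, so no count model was run. Bowtie 0.12.2 and the builds mm8 and mm9 are listed, without their roles, per the submitters' processing notes. Quantification tool, annotation and strand use: not given in the sources used here. Of 52550 rows, 52403 matched GENCODE M21 (GRCm38) by identifier. Fragment numbers are approximate: the most frequent FPKM times length in single-transcript genes (106.4 to 192.7) was taken as 1 fragment.

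The 14656 genes that reached 0.5 FPKM in at least 3 libraries were tested with limma 3.58.1 in R 4.3.3 on log2(FPKM / factor + 0.5), with genotype as the only term, a mean-variance trend, two-sided tests and Benjamini-Hochberg adjustment over all tested genes. Factors (0.949 to 1.07) were trimmed means of log2 ratios (trims 0.3 and 0.05). The code was tested on simulated data. Overlap of groups was judged on deposited FPKM.

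The 10 genes, the lists and the rule for named genes (members called, and the 3 of smallest p, per list) were chosen with earlier results of these data known. A list of 10 clock genes served as a marker of the libraries and is represented by Dbp and Arntl. Of these 10 genes, limma called 6 higher and 2 lower in KO, against 0.273% and 0.102% of all tested genes. As the list was chosen with earlier results known, its count is no independent evidence. Alternatives were other scalings, filters, pseudocounts and variance models, a replicate block and leaving out each library. Protein sequences were not used here.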

Additional observations from a re-analysis of the deposited data

How the results depend on the processing

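In 16 alternatives (10 settings and 6 with 1 library left out) none of the 10 genes was called. All 10 kept their direction under the 10 settings. With 1 library left out, Irs2, Foxo3, Insr and Fbxo32 kept theirs. Of the 160 differences recomputed over all 16 alternatives, 9 turned. All 9 were small and came from the 6 fits with 1 library left out. In those fits Foxo1 ranged from -0.0996 to 0.0956, Foxo4 from -0.0178 to 0.0936 and Irs1 from -0.0408 to 0.0828. Pik3ip1 ranged from -0.0955 to 0.262, Trim63 from -0.189 to 0.0964 and Fbxo30 from -0.219 to 0.0322. The ratio of Foxo4 to Foxo1 ranged from -0.0529 to 0.176, that of Foxo3 to Foxo1 from 0.034 to 0.334, of Fbxo32 to Trim63 from 0.088 to 0.396, of Irs2 to Irs1 from 0.428 to 0.635 and of Irs2 to Insr from 0.680 to 1.09. The recount of cardiomyocyte markers was chosen after seeing the data. The count of all called genes (55, 40 higher and 15 lower) fell to 20 (17 and 3) without a filter, and to 12 to 36 (9 to 27 higher, 3 to 9 lower) with 1 library left out. Without a filter, 0 genes of the insulin list and 1 of the FoxO target list were called, as Sgk1 (limma adjusted p = 0.106) and Depp1 (0.12) missed the threshold. With 1 library left out, these lists had 0 to 2 and 1 to 2 calls. More genes are adjusted over without a filter, and fewer samples enter with a library left out.

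The labels give same-numbered WT and KO replicates only a shared number. Their deviations correlated at 0.0076, -0.036 and 0.18 across genes, and those of different-numbered replicates at -0.202 to 0.193. Whether any were paired cannot be told from these values. With the replicate block 42 genes were called (24 higher, 18 lower), none of the 10, Ddit4 passed (limma adjusted p = 0.027) and Sgk1 did not (0.069). WT replicate 3, the shallowest library, held the lowest value of Pik3ip1 (4.21 FPKM) and of Irs2 (2.67 FPKM). The part of depth in these values was not tested.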

Other observations

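Gabarapl1, an autophagy gene on the list of FoxO targets, was named after its values were seen. It stood at 43.1, 46.8 and 39.6 FPKM in WT hearts and at 41.1 and 45.1 FPKM in KO replicates 1 and 2, but at 11.2 FPKM in KO replicate 3. Its log2 difference of -0.62 ± 0.47 was not called (limma adjusted p = 0.800) and rests on that library. Other autophagy genes of the list did not show this: Sqstm1 stood at 76.7 to 90.4 FPKM across WT hearts and at 90.8, 98.97 and 105.7 FPKM in KO replicates 3, 1 and 2 (log2 difference 0.25 ± 0.11, limma adjusted p = 0.615).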
